A study of Mus musculus with 6 samples.

Results

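The GATA family consists of transcription factors that bind the DNA letters GATA through a pair of zinc fingers. Gata2 and Gata3, with the erythroid factor Gata1, are best known from blood, nervous system and ectodermal organs, while Gata4, Gata5 and Gata6 are best known from heart and endoderm. Gata3 directs T helper cell fate and is needed in the inner ear, kidney duct and sympathetic neurons, and Gata2 is needed in blood progenitors and is also made by endothelium. The members Gata2, Gata3, Gata4, Gata5 and Gata6 are 5 of 18193 genes that the platform annotation names by a probe set of their own. Every probe set assigned to exactly one of them was kept, 10 in all. The family was selected on the albino minus pigmented difference of Gata3, measured on these 6 arrays. All differences between the genotypes at members are therefore descriptions and carry no test.

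The study set tissue labelled retinal pigmented epithelium (RPE) from albino mouse embryos against the same tissue from control (pigmented) embryos, all untreated and at embryonic day 13.5. Each of the 3 arrays of a genotype held RNA pooled from 3 to 4 littermates, so single embryos cannot be seen. The labels give neither the strains nor the mutated gene. Values are log2 expression levels of probe sets, and levels of different probe sets are not compared as amounts.

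RPE markers were present on all arrays, with 11 of 12 listed genes at a mean of at least 5, the filter used for testing, and Rpe65, the retinoid isomerase gene, below it. Markers of other tissues were present as well, among them the embryonic globin gene Hbb-y at 14.11 to 14.44 and the collagen gene Col3a1 at 12.92 to 13.46. Over all 23591 probe sets that passed the filter, limma called 0 at an adjusted p under 0.05 (0.0%), with 1104 at an unadjusted p under 0.05 (4.68%). That second count was 4243 (18.0%) with the replicate number as a block, 4952 (21.0%) with a term for replicate 1 and 567 without pigmented replicate 2, and the adjusted count stayed at 0 in each. Of 12098 tested genes, 64.8% were higher in albino pools and 964 (7.97%) were higher without overlap, the background for the list counts below. Replicate 1 of both genotypes stood apart from the other arrays, as the correlations of deviations in the methods show, so member values are also given against it below.

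The sequences just upstream of the transcription starts are shown for Gata3, the member with the difference, and for both listed starts of Gata2, whose probe sets went separate ways across arrays. RefSeq promoter windows (GRCm38.p6) matched 3 of 5 members. Each line gives the 250 bases before a start, 5′ to 3′ on the gene's strand. Capitals mark GGGCGG or its reverse complement CCGCCC, the GC box.
Gata3, chr2:9878601-9878850, minus strand: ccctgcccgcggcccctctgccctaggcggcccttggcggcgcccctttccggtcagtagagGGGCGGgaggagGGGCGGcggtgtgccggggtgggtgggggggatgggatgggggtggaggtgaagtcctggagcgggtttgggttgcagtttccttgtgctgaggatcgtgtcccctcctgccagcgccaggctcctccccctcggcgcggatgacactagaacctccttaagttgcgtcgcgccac
Gata2, chr6:88193641-88193890, plus strand: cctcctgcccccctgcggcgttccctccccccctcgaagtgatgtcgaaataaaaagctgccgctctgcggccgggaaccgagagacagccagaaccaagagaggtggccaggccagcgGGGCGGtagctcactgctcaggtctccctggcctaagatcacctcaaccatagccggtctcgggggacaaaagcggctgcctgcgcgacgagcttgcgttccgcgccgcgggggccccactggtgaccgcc
Gata2, chr6:88198414-88198663, plus strand: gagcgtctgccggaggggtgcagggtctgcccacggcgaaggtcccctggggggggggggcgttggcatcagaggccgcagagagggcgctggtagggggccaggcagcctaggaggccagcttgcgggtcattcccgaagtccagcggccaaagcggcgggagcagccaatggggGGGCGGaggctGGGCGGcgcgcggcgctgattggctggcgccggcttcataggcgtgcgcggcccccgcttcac

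All 3 windows were rich in G and C, at 70.0% for Gata3 and at 67.2% and 74.0% for Gata2, against a median of 52.4% over 32851 windows of the same length. The GC box occurred 2 times before Gata3, and 1 and 2 times before the Gata2 starts. It occurred at least once in 32.7% of all windows. The letters GATA, searched on both strands, occurred 0 times in these 3 windows and in 53.6% of all windows. The E-box letters CANNTG, a palindrome read once for both strands, also occurred 0 times in them and in 66.2% of all windows. Matches are descriptions of the letters and do not show binding.

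Gata3 read higher on every albino array than on any pigmented array. Its probe set 1448886_at, the only one for the gene, gave 7.61, 7.57 and 6.97 on albino replicates 1, 2 and 3, and 5.85, 5.82 and 6.18 on pigmented replicates 1, 2 and 3. The lowest albino array, replicate 3, stood 0.79 above the highest pigmented array, also replicate 3. Albino pools averaged 7.38 ± 0.36 and pigmented pools 5.95 ± 0.20 (SD, n = 3 each).

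The difference for Gata3 was 1.43 on the log2 scale (SE 0.20), or 2.70-fold. Between arrays of the same number it was 1.76, 1.75 and 0.79, so the replicate 3 arrays lay closest together. Among tested probe sets, 1744 (7.39%) likewise did not overlap with albino higher, and the difference of Gata3 ranked 47 from the top of 23591. Gata3 was picked for this difference, so neither figure supports it. In pooled tissue, more cells that make Gata3 and more Gata3 RNA per cell cannot be told apart.

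**Figure D1:**
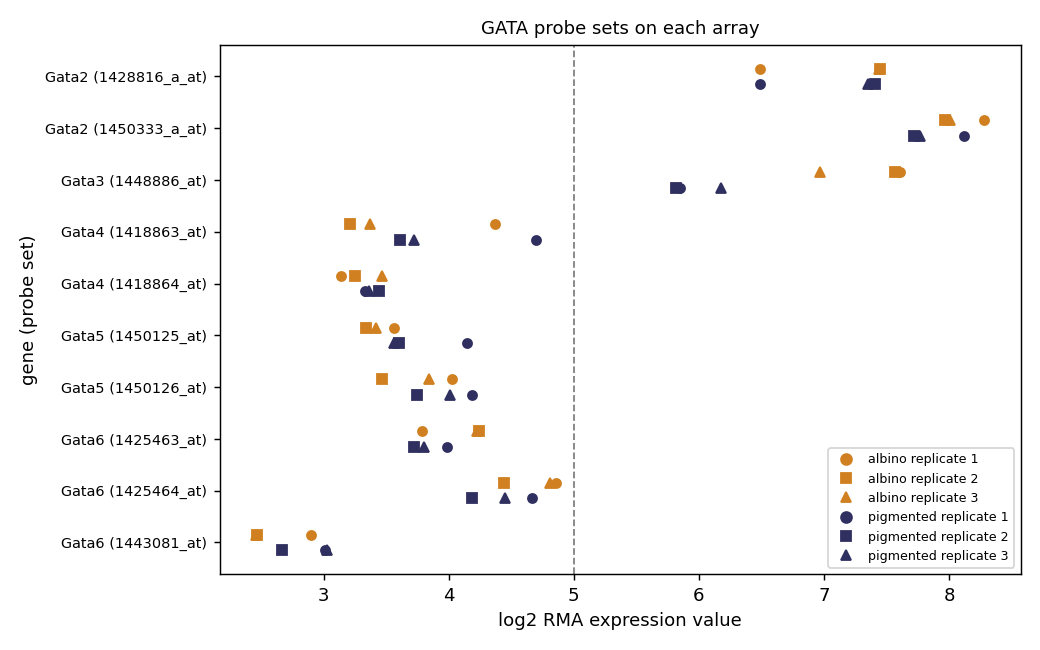
Log2 expression values of the 10 GATA probe sets, 1 point per array, with albino in orange, pigmented in dark blue, replicate number by marker shape, and a dashed line at the filter of 5. The genotypes separate at Gata3 (6.97 to 7.61 against 5.82 to 6.18) and overlap or touch at the other 9 probe sets, of which 7 have means below 5.

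Gata2, the member most closely related to Gata3, showed no such separation. Probe set 1450333_a_at gave 8.28, 7.97 and 8.01 on albino arrays, against 8.12, 7.72 and 7.77 on pigmented ones, in order of replicate number. Albino was higher within each number, by 0.16, 0.25 and 0.24, but pigmented replicate 1 exceeded albino replicates 2 and 3. Its means were 8.09 ± 0.17 and 7.87 ± 0.22 (SD, n = 3 each), a difference of 0.22 (SE 0.15, or 0.057 with the replicate block).

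The second Gata2 probe set, 1428816_a_at, followed the replicate number instead. It gave 6.49, 7.45 and 7.44 in albino pools against 6.49, 7.41 and 7.35 in pigmented ones. Both replicate 1 arrays were low, by 0.96 in albino and 0.89 in pigmented pools against the mean of replicates 2 and 3. Of all tested probe sets, 3.47% lay at least 0.8 lower on replicate 1 in both genotypes, a limit set after these values were seen. Probe set 1450333_a_at moved the other way on replicate 1, up by 0.29 and 0.38, so the Gata2 probe sets disagree across arrays.

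The genotype difference at 1428816_a_at was 0.04 (SE 0.35, or 0.057 with the replicate block), with means of 7.13 ± 0.55 and 7.08 ± 0.52 (SD, n = 3 each). Its sign turned after cyclic loess scaling (-0.012). Which of the 2 listed starts each Gata2 probe set reads was not determined here.

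Gata4, a factor of the heart and gonad, read low on every array. Probe set 1418863_at gave 4.37, 3.21 and 3.37 in albino pools against 4.70, 3.61 and 3.72 in pigmented ones, with both replicate 1 arrays highest. The difference was -0.36 (SE 0.40, or 0.069 with the replicate block), and it was -0.33, -0.40 and -0.35 between arrays of the same number. It became -0.72 without albino replicate 1 and -0.015 without pigmented replicate 1. Replicate 1 exceeded the mean of the other replicates by 1.08 in albino and by 1.04 in pigmented pools. The other Gata4 probe set, 1418864_at, lay within 3.14 to 3.47 on all arrays and differed by -0.09 between genotypes (SE 0.12).

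Gata5, known from heart valve and endoderm, also stayed below 5. Its probe set 1450125_at gave 3.56, 3.34 and 3.42 in albino pools against 4.15, 3.60 and 3.56 in pigmented ones, and the groups touched at 3.56. Probe set 1450126_at gave 4.03, 3.47 and 3.84 against 4.19, 3.75 and 4.01, with the groups overlapping. The differences were -0.33 (SE 0.18, or 0.105 with the replicate block) and -0.20 (SE 0.19, or 0.071), both lower in albino pools, opposite to Gata3. Without pigmented replicate 1 the first was -0.14, and without albino replicate 2 the second was -0.048.

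Gata6, a factor of endoderm and heart, lay below the filter at all 3 of its probe sets. Probe set 1425464_at gave 4.86, 4.44 and 4.81 in albino pools against 4.67, 4.19 and 4.45 in pigmented ones, a mean of 4.57. Its difference was 0.27 (SE 0.17, or 0.074 with the replicate block), and the 2 genotypes overlapped. The other Gata6 probe sets disagreed in sign, with 0.25 (SE 0.16) at 1425463_at and -0.29 (SE 0.17) at 1443081_at.

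Counted over the family, 3 of 10 probe sets and 2 of 5 genes had means of at least 5, while 47.6% of all probe sets other than controls lay below it. The 7 probe sets below 5 had means of 2.76 to 4.57, and the lowest mean above the filter was that of Gata3 at 6.67. Across the 10 probe sets, 5 were higher and 5 lower in albino pools. Gata3 was the 1 whose genotypes did not overlap. Among all tested probe sets, 7.39% did not overlap with albino higher and 3.44% with albino lower. Gata3 was picked for its difference, so this count is not a result about the family. The files give no detection calls, so a low level is not read as absence of the transcript.

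Markers of skeletal muscle moved with Gata3. The list mean of 13 tested markers was 8.81, 8.84 and 8.19 on albino arrays, against 7.11, 6.82 and 7.68 on pigmented ones. All 13 were higher in albino pools and did not overlap between genotypes, where 7.97% of tested genes did the same, and Myf6, the late myogenic factor, was below the filter. Pax7 and Mymk had pigmented means below 5 (4.44 and 4.98) and passed the filter through their albino values. Their place in that count is therefore not support. Myf5, an early myogenic factor, differed by 1.67 (SE 0.25), and limma adjusted p was 0.50, so it did not pass.

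Gata3 and the muscle list shared their order in part. Albino replicate 3 was the lowest of its genotype and pigmented replicate 3 the highest for both. Around their own means over 6 arrays, Gata3 lay at 0.94, 0.90 and 0.30 in albino pools against -0.82, -0.85 and -0.49 in pigmented ones, and the muscle mean at 0.90, 0.93 and 0.28 and at -0.79, -1.09 and -0.22. With the muscle mean as a covariate in limma, an alternative chosen after seeing the data, the Gata3 difference was 0.51 (SE 0.29) in place of 1.43. The muscle mean includes Pax7 and Mymk, which passed the filter through their albino values, so the profile and the covariate rest partly on them. Muscle means of the genotypes do not overlap, so genotype and muscle marker level cannot be told apart here.

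**Figure D2:**
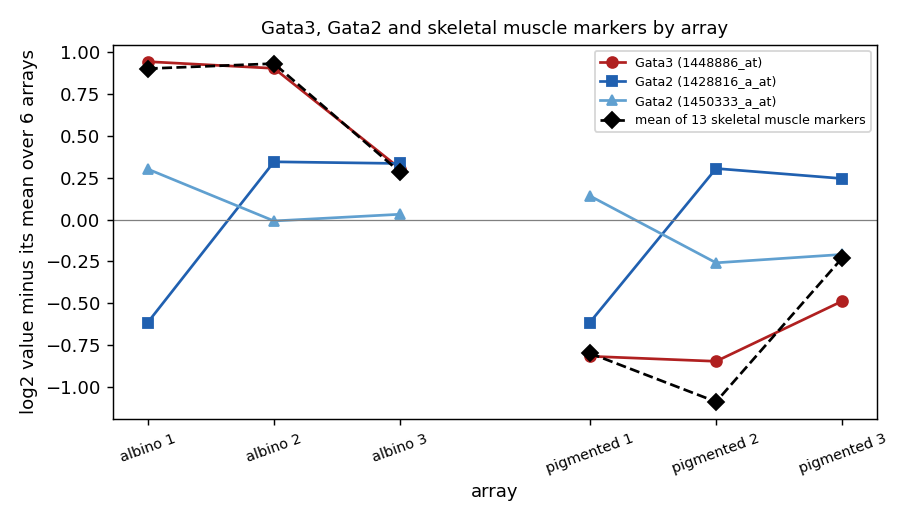
Log2 values minus their own mean over 6 arrays for Gata3, both Gata2 probe sets and the mean of 13 skeletal muscle markers, by array, with lines joining arrays of 1 genotype for reading only. Gata3 and the muscle mean lie above 0 on all albino arrays and below 0 on all pigmented arrays, while Gata2 probe set 1428816_a_at is lowest on both replicate 1 arrays.

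Other cell types that use GATA factors were read through marker lists. Endothelial markers, from a tissue that makes Gata2, had 5 of 10 higher in albino pools. Their list mean ranged from 7.98 to 8.09 in albino and from 8.03 to 8.12 in pigmented pools. Erythroid markers had 5 of 7 higher, near the share over all genes, with list means of 8.90 to 9.54 and 8.98 to 9.11. Of their genes, Hba-a1 and Epb42 lay below the filter. Hba-a1 was read by the only probe set that names it alone. Probe sets naming several genes were not used for the lists, so its value is not read as a low globin level.

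Markers of mast and lymphoid cells, which use Gata2 and Gata3, had 3 of 8 genes above the filter, and Cd3e, the T cell receptor subunit gene, and Il7r lay below it. Of those 3, 2 were higher, with list means of 7.06 to 7.64 in albino and 6.74 to 7.46 in pigmented pools. Among sympathetic and autonomic neuron markers, Dbh, which makes noradrenaline, was the 1 gene above the filter, at 6.03 to 6.76 and 6.45 to 7.11. Tyrosine hydroxylase (Th) and Phox2a were below the filter.

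Surface ectoderm markers had 8 of 10 tested genes higher in albino pools, near the 64.8% of all tested genes, and list means were 7.93 to 8.56 and 7.98 to 8.17, which overlapped. Krt15, a basal keratin, differed by 0.61 (SE 0.23, limma adjusted p = 0.999) with overlap, while the epidermal regulator Trp63 differed by 0.03 (SE 0.25). Epcam was the 1 of the 10 without overlap, at a difference of 0.44 (SE 0.155, limma adjusted p = 0.988). Macrophage markers likewise had 8 of 10 higher, 4 of them without overlap, where 7.97% of tested genes did the same. Of those 4, Cd68 had a pigmented mean below 5 (4.99) and passed the filter through its albino values. Its place in that count is therefore not support. Aif1 separated narrowly, with a lowest albino value of 5.42 against a highest pigmented value of 5.41. Macrophage list means were 6.79 to 6.81 against 6.65 to 6.67 and did not overlap. The part of these cell types in the Gata3 level was not tested.

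Lists for the tissues of the eye mostly lay lower in albino pools. RPE markers were lower in 11 of 11 tested genes (list means 9.64 to 9.82 against 9.82 to 10.07), neural retina markers in 7 of 7 (5.90 to 6.47 against 6.20 to 6.84) and periocular mesenchyme markers in 7 of 9 (10.05 to 10.15 against 10.13 to 10.32). Lens markers were lower in 7 of 7, and the low list mean of albino replicate 3 (4.57) set them apart from 7.25 to 7.58 on the other arrays. Heart markers, the closest to a Gata4 tissue, had 3 of 8 genes above the filter, with Nppa, Nppb, Myh6, Myl7 and Tnni3 below it. Their list means were 6.69 to 6.87 in albino and 6.11 to 6.61 in pigmented pools, and Myl4, a myosin light chain gene also made by embryonic skeletal muscle, was the 1 higher. Y-linked means were 7.06 to 7.99 in albino and 2.32 to 7.39 in pigmented pools, and the Gata3 difference with them as a covariate was 1.43 (SE 0.27).

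The genes with the pattern closest to Gata3 over the 6 arrays were ranked by the root mean square difference between log2 values, each centred on its own mean. Arpp21, a cAMP-regulated phosphoprotein gene, was closest at 0.0888, against a median of 0.726 over 12097 genes. It gave 7.37, 7.60 and 6.78 in albino pools against 5.71, 5.65 and 5.96 in pigmented ones. Next came Mylk4, a myosin light chain kinase gene (0.108), Hjv, the hemojuvelin gene (0.114), Itgb1bp2, which encodes the muscle protein melusin (0.114), and Car3, a carbonic anhydrase gene abundant in muscle (0.121).

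Prr32 (0.141), the fast troponin T gene Tnnt3 (0.144), the small GTPase gene Rrad (0.152), Rtn2 (0.154) and the muscle progenitor factor Pax7 (0.159) completed the 10 closest. All 10 were higher in albino pools, by 1.19 to 1.56. Mylk4, Prr32, Rrad, Rtn2 and Pax7 had pigmented means below 5 (4.44 to 4.93), so they passed the filter through their albino values. Of the 13 muscle markers, 11 were among the 100 closest genes, which are 0.827% of those ranked, and the last, Mymk, ranked 123. The Gata2 probe sets lay far off, at 0.666 (1450333_a_at) and 0.880 (1428816_a_at). These distances include the genotype difference for which Gata3 was chosen, so the closest genes had to be higher in albino pools. Neither that direction nor the muscle count is support, and the distances describe 6 arrays without a test.

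**Figure D3:**
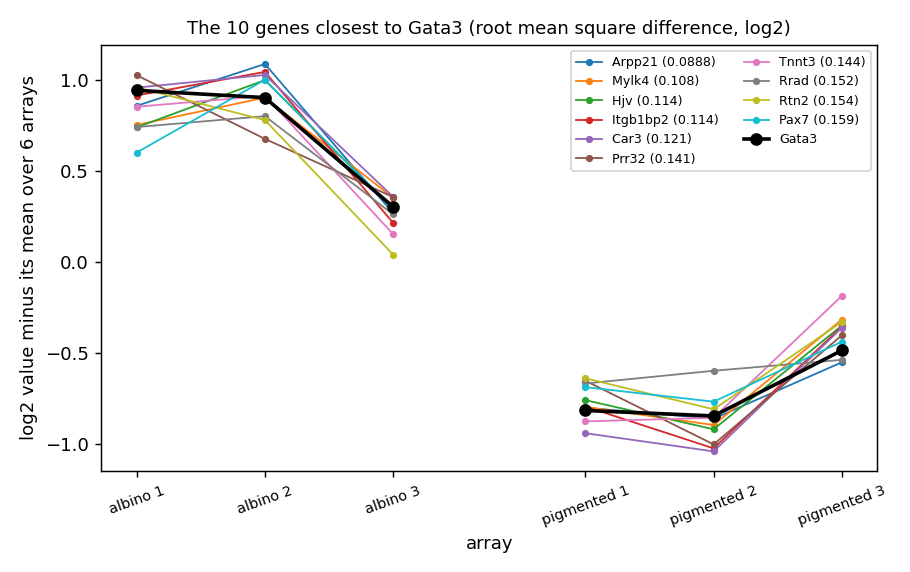
Log2 values minus their own mean over 6 arrays for Gata3 (black) and the 10 genes closest to it, with the root mean square difference of each in the legend and lines joining arrays of 1 genotype for reading only. All 11 genes are lowest in albino pools on replicate 3 and lie below 0 on all pigmented arrays.

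Proteins that work with GATA factors were not used in choosing the members and were tested. The partner, zinc finger and target lists were, however, drawn up with earlier results of these data known. Of 23 listed partners, 21 passed the filter, 10 higher and 11 lower in albino pools, with a median difference of -0.0033 against 0.043 over 12098 tested genes. In limma 0 of 21 passed at an adjusted p under 0.05, where the background was 0.0%, and 2 had an unadjusted p under 0.05. The Friend of GATA cofactor genes Zfpm1 and Zfpm2 differed by 0.27 (SE 0.16) and 0.33 (SE 0.15), each with limma adjusted p = 0.999. The second probe sets of Zfpm1 (0.01, below the filter) and Zfpm2 (-0.05) did not repeat these values.

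Mef2c, a transcription factor gene of muscle and vessels, had the smallest p among partners. It read 8.78, 8.74 and 8.45 on albino arrays, against 8.05, 7.88 and 8.22 on pigmented ones, without overlap. Its difference of 0.61 (SE 0.14) did not pass (limma adjusted p = 0.647), and its 4 other probe sets gave 0.65 to 0.81. Mef2c is also a gene of skeletal muscle, whose markers moved in the same pools.

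Srf, a factor of muscle and immediate early genes, differed by 0.19 (SE 0.09, limma adjusted p = 0.999), and its second probe set by 0.00. On the lower side, Lmo2, which bridges GATA factors to Tal1 in blood and vessels, read 8.78, 8.78 and 8.86 in albino pools against 9.07, 9.06 and 8.95 in pigmented ones. The groups did not overlap, with albino lower, as at 812 tested probe sets (3.44%), and the difference of -0.22 (SE 0.09) did not pass (limma adjusted p = 0.999). The heart factor genes Nkx2-5 (-0.23, SE 0.10) and Tbx5 (-0.20, SE 0.33) did not pass either. Nkx2-5 also did not overlap, at 4.90 to 5.11 in albino against 5.13 to 5.30 in pigmented pools. Its albino mean was below 5 (4.97), so it passed the filter through its pigmented values.

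Other genes with a GATA-type zinc finger numbered 10, all above the filter, with 4 higher, 6 lower and a median of -0.018. In limma 0 of 10 passed at an adjusted p under 0.05, and 0 had an unadjusted p under 0.05. Over the 31 tested partner and zinc finger genes the unadjusted count was 2, but 10 with the replicate block and 10 with a term for replicate 1. All tested probe sets gave 18.0% and 21.0% in those fits, smaller shares than in the lists. The lists use only the highest-mean probe set of each gene, so the units are unlike, and the excess was not tested. The adjusted count was 0 in both fits. Gata1, the erythroid member of the family, read 5.65, 5.18 and 5.32 in albino pools against 5.95, 5.22 and 5.53 in pigmented ones, so the groups overlapped (difference -0.18, SE 0.21). Trps1, a repressor gene of cartilage and hair, differed by -0.04 (SE 0.15), though its 3 other probe sets gave 0.08 to 0.19.

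The chromatin remodelling subunit genes Mta2 (0.35, SE 0.16), Mta3 (0.18, SE 0.09) and Mta1 (0.05, SE 0.09) had the smallest p on the higher side. One of the 2 other Mta3 probe sets gave -0.12, and the second Mta1 probe set gave -0.22 below the filter. On the lower side, after Gata1, were Rere (-0.08, SE 0.19) and Gatad2b (-0.03, SE 0.09). Each of these 5 had limma adjusted p = 0.999.

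Of 20 textbook GATA targets, 12 passed the filter, 5 higher and 7 lower, with a median of -0.018. In limma 0 of 12 passed at an adjusted p under 0.05, and 1 had an unadjusted p under 0.05 (2 with the replicate block). That gene was Tnnc1, the slow and cardiac troponin C gene, at 9.60, 9.68 and 8.91 in albino pools against 7.40, 7.14 and 8.32 in pigmented ones (1.78, SE 0.35, limma adjusted p = 0.556). Tnnc1 is made by embryonic muscle, and it was lowest in albino and highest in pigmented pools on replicate 3, as the mean of the muscle markers was. Whether its difference comes from muscle was not tested.

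Targets known from Gata3 tissues lay below the filter, among them Th and the interleukin genes Il5 and Il13. The receptor gene Ret, a target in the kidney duct, gave 4.60, 4.14 and 4.31 in albino pools against 4.64, 4.46 and 4.24 in pigmented ones, also below it. Alas2, the erythroid heme synthesis gene, differed by 0.34 (SE 0.28), and the endothelin gene Edn1 by 0.12 (SE 0.14). Vwf, the von Willebrand factor gene of endothelium, differed by -0.26 (SE 0.14), Star, a cholesterol transport gene, by -0.20 (SE 0.12), and Amh, a gonadal hormone gene, by -0.15 (SE 0.13). None of these 5 passed, each with limma adjusted p = 0.999.

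**Figure D4:**
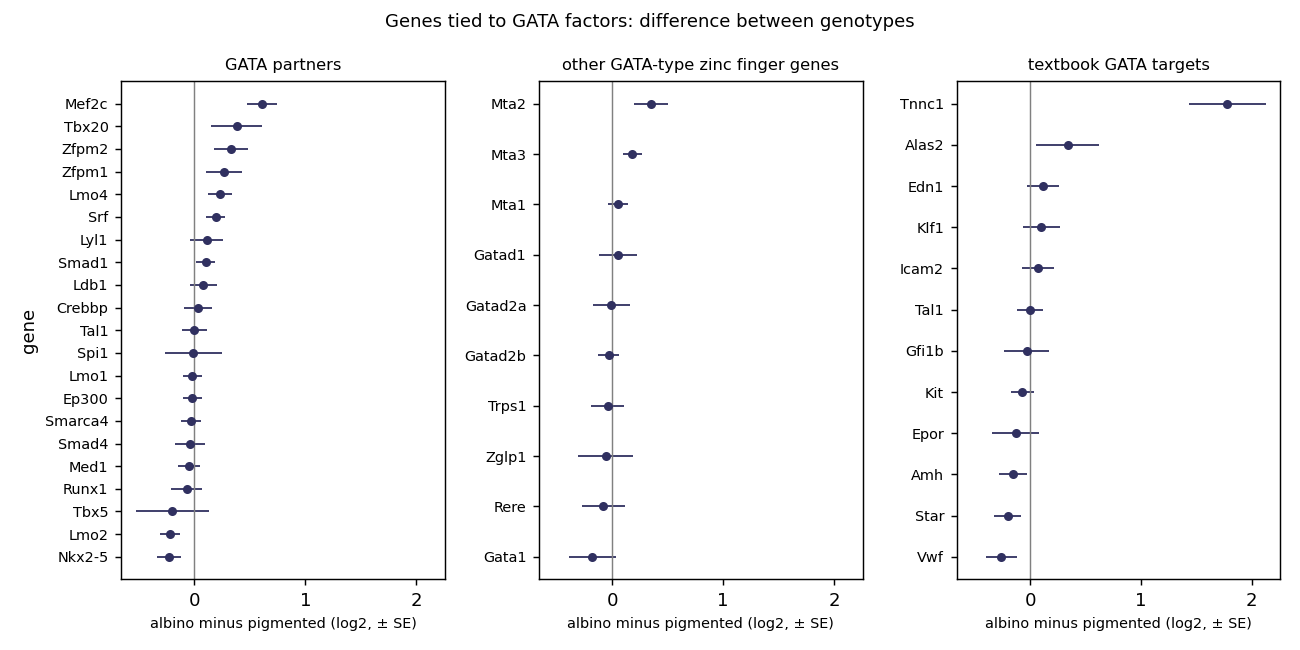
Albino minus pigmented difference on the log2 scale for tested genes of the partner, other zinc finger and target lists, as points with bars for the SE of the limma fit. Tnnc1 (1.78) and Mef2c (0.61) lie farthest to the right and 0 genes passed the adjusted threshold in any panel.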

How the data were processed

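RNA of 6 pools, 3 for each genotype, was measured on Affymetrix 3′ arrays from 100 ng of total RNA, per the labels' protocols. The deposited values are log2 expression values per probe set, made by the authors with Affymetrix Expression Console 1.1 and RMA, per the submitters' processing notes. RMA corrects background, equalises the arrays' distributions and summarises probes, so differences are relative to other probe sets. The table held 45101 probe sets, 64 of them controls, with array medians of 5.19 to 5.22. The number of arrays limits the precision. The p-values weigh a genotype difference against the spread between pools within a genotype, which limma estimates partly from all probe sets. In the main fit that spread includes the shift of replicate 1.

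The annotation named 1 gene for 34945 probe sets, several for 932 and none for 9160, and 34741 of the 34945 matched a GRCm38.p6 gene table by Entrez ID. Genotypes were compared as albino minus pigmented with limma 3.58.1 in R 4.3.3 (two-sided, Benjamini-Hochberg adjustment over 23591 probe sets with a mean of at least 5, threshold 0.05), which was tested on simulated data. SEs of members below the filter come from the same fit over all probe sets. For each listed gene the probe set with the highest mean was used.

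The members and lists were chosen with earlier results of these data known. Named were all member probe sets, Gata1, Zfpm1, Zfpm2 and Trps1, the 10 genes closest to Gata3, and, as no gene passed, the 3 genes with the smallest p on each side of each list. Single markers, neighbours and the limit of 0.8 were picked with the values in view.

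The labels do not say what a replicate number shares. Deviations from genotype means correlated at 0.863, 0.687 and 0.448 between arrays numbered 1, 2 and 3, so the numbers were taken as pairs from the data. Most of that structure separates replicate 1, since albino replicate 2 also matched pigmented replicate 3 (0.693). Albino replicate 3 matched pigmented replicate 2 (0.546) above its own number. The data therefore do not settle pairs 2 and 3, and differences by number and SEs with the replicate block are descriptions under that pairing. Alternatives were median centring, cyclic loess, the replicate block, a term for replicate 1, Y-linked and muscle covariates, no filter, and leaving out each array.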

Additional observations from a re-analysis of the deposited data

How the results depend on the processing

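The Gata3 difference kept its direction under each alternative run, at 1.44 after median centring, 1.38 after cyclic loess, 1.43 with the replicate block (SE 0.21) and with a term for replicate 1, and 1.32 to 1.64 with 1 array left out. With the skeletal muscle covariate it was 0.51. No mean over Gata3 probe sets was run, since the gene has 1. The counts of genes past the adjusted threshold, over all probe sets and in the partner, zinc finger and target lists, stayed at 0 in every alternative, the replicate block included, which changed no call. Of the 9 other member probe sets, 1 (Gata2, 1428816_a_at) changed sign, with -0.25 to 0.36 when 1 array was left out and -0.012 after cyclic loess. The others kept their sign but moved with 1 array left out, as Gata4 1418863_at did (-0.72 to -0.015), and Gata5 1450125_at (-0.435 to -0.14) and 1450126_at (-0.328 to -0.048). Of the 10 genes closest to Gata3, 10 remained after median centring, 9 after cyclic loess and 5 to 8 with 1 array left out, 5 of them without pigmented replicate 2 and 6 without albino replicate 2 or pigmented replicate 1. After centring within each genotype 0 remained, since that removes the genotype difference the ranking rests on. Probe sets below 5 carry signals too low to order the members.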

Other observations

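Genes next to Gata3 and Gata2 on their chromosomes were read as a description of the neighbourhood, taking the 2 nearest tested protein-coding genes on each side in the gene table. Beside Gata3, the RNA-binding protein gene Celf2 differed by 0.22 (SE 0.19), Usp6nl by -0.10 (SE 0.11), the TFIID subunit gene Taf3 by 0.12 (SE 0.19) and the ATP synthase subunit gene Atp5c1 by 0.05 (SE 0.14). Taf3, the nearest of them, read 6.40, 5.91 and 6.17 in albino pools against 6.31, 6.07 and 5.74 in pigmented ones, with the groups overlapping. Beside Gata2, Rpn1 differed by 0.06 (SE 0.15), Rab7 by 0.07 (SE 0.13), Eefsec by 0.09 (SE 0.11) and the chaperone gene Dnajb8 by -0.31 (SE 0.13). Dnajb8 read 5.07, 5.09 and 4.94 in albino pools against 5.57, 5.19 and 5.26 in pigmented ones, without overlap, where 3.44% of tested probe sets likewise did not overlap with albino lower. None of these 8 genes passed, each with limma adjusted p = 0.999.

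With each probe set centred within its genotype, so that the genotype difference was removed, the closest genes to Gata3 were Cox6a2, a cytochrome oxidase subunit gene of striated muscle (0.0423), the ephrin receptor gene Epha7 (0.0519) and the protocadherin gene Pcdh10 (0.0523). After them came Serpinb6b (0.058), Lmcd1 (0.0615), Vgll3 (0.0678), Meg3 (0.0687), Fem1c (0.0725), the basal keratin gene Krt5 (0.0733) and Srl (0.0736). Of these 10 genes, 0 were on the muscle list. That list holds 14 genes and leaves out Cox6a2, so this count does not cover all genes of muscle. With 3 arrays a genotype the distances rest on few values.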
